A study of Homo sapiens with 6 samples.

Results

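Ribosome biogenesis genes were followed in K562, an established human cell line from a chronic myeloid leukemia, with and without overexpression of CTCF, a DNA-binding zinc finger protein of insulators and loop boundaries. The set holds 45 listed genes, and its members are the probe sets of the array whose platform annotation names any of them. Of 54613 probe sets tested, 82 did so. 75 of these name 1 member and no other gene and cover 40 genes. The other 7 name a member together with other genes and are described apart. NOP56, BOP1 and PPAN are read by such shared probe sets alone, and GNL3 and DDX18 are not analysed here. The control group is the line KpCDNA, K562 cells stably carrying an empty pCDNA vector, with 2 arrays. The other group is the line KCTCF-D11, K562 cells stably carrying pCDNA-CTCF, with 4 arrays. Neither received a further treatment. All CTCF arrays come from KCTCF-D11, so CTCF itself cannot be told apart from other traits of that line. The labels do not say whether replicates were separate cultures, so the p-values reflect the spread among these arrays and that spread may be purely technical.

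Ribosomes are built in the nucleolus. RNA polymerase I makes a long precursor RNA, which small nucleolar ribonucleoproteins modify and the small subunit processome folds and cuts. Separate sets of assembly factors then carry the small and the large subunit out to the cytoplasm. Many of these factors are known targets of MYC, whose dimer with MAX binds the E-box CACGTG, a site that other basic helix-loop-helix factors also bind. The members include a few genes of nucleotide, polyamine and mitochondrial function that are often grouped with the nucleolar genes.

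Promoters of members that hold an E-box are shown because MYC, of which many such factors are known targets, binds that motif with MAX. Most listed members also belong to a published list of MYC targets, so the share with an E-box is tied to how they were chosen and is a description of the set. RefSeq promoters (GRCh38.p14, 250 bases before to 50 after the start) were matched for 37 of the 45 members. CACGTG stood in the promoters of 19 of the 37, 51.4%, against 34 of 112 other ribosome biogenesis genes, 30.4%, and 1672 of 15382 measured genes, 10.9%. The median GC content of these promoters was 64.2%, 62.3% and 62.7%. The ETS-type motif CCGGAAG stood in 37.8%, 42.9% and 16.6% of the genes, and a core motif of CTCF stood in 0 of the 37, 3 of the 112 and 517 of the 15382 genes. Both strands were searched, and overlaps between motifs were not removed. Of the members with a probe set of their own, the median log2 change was 0.59 for the 18 with an E-box and 0.73 for the 16 without. A match describes letters in a window and is not a binding site. Shown here are the windows from 150 bases before to 30 after the start for the 4 members with an E-box and the largest changes, on the strand of the gene, with the E-box in capitals.
MRTO4: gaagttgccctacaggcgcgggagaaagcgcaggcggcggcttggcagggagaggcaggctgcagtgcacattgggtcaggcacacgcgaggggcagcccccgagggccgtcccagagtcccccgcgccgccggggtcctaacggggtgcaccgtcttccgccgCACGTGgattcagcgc
LYAR: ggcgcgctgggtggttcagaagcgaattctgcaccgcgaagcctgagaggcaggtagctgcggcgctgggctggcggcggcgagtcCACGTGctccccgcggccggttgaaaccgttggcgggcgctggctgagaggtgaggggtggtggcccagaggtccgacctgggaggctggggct
UTP20: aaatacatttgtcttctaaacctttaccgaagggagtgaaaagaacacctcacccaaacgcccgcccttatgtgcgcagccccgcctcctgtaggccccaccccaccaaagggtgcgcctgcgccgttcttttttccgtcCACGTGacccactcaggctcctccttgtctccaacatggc
RRP9: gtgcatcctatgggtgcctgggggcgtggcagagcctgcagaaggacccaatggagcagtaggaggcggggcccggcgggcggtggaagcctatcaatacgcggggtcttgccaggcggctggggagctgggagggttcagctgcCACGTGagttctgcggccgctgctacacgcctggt
The MRTO4 window is chr1:19251655-19251834 (+ strand), the LYAR window chr4:4289992-4290171 (- strand), the UTP20 window chr12:101279955-101280134 (+ strand) and the RRP9 window chr3:51941875-51942054 (- strand). The E-box begins 64 bases before the start in LYAR, 10 before it in UTP20, 5 before it in RRP9 and at base 15 of the transcript in MRTO4. LYAR has another listed start whose promoter holds no E-box.

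The arrays fell into 2 sets on bacterial and phage spike-in probe sets. The smaller holds empty vector array 1 with CTCF array 4. The larger holds the other empty vector array and the remaining 3 CTCF arrays. For ACTB the 3' control exceeded the 5' control by 0.81 and 0.91 (log2) on the arrays of the smaller set, against 0.22 to 0.28 on the other 4, a measure of RNA and labelling quality. All log2 changes below are CTCF minus empty vector on log2(value + 16), where value is the deposited intensity, from a limma fit with the array set as a block, given ± SE. "Rose" means a Benjamini-Hochberg adjusted p under 0.05 over all 54613 probe sets. CTCF itself read 457 and 634 with the empty vector against 1311 to 1614 with pCDNA-CTCF (1.29 ± 0.16, adjusted p = 0.0288). Of 9 erythroid markers 7 were measured. HBE1, GATA1, TAL1, KLF1, TFRC and HBZ read at least 804 on all arrays, and EPOR read 243 to 289 in the larger set and 1346 and 1748 in the smaller. HBZ, an embryonic globin, rose by 1.58 (adjusted p = 0.0166). The summed T and B cell markers, 6 of 7 measured, read 1535 to 1597 with the empty vector and 788 to 877 in the CTCF arrays, mostly from CD3D, while CD3E stayed at or below 54.3. The fibroblast marker COL3A1 and the epithelial marker KRT5 read 6114 to 6627 on the smaller set's arrays against 146 to 302 on the others. Other epithelial markers were read in both sets, with EPCAM at 1307 to 2139, KRT8 at 1121 to 2410 and KRT19 at 444.4 to 1214. CDH1 stayed at or below 4.92. The fibroblast marker PDGFRB read 71.7 and 73.7 on the smaller set's arrays and at most 2.95 on the others. Another fibroblast marker, COL6A3, read 109 and 283 with the empty vector against at most 38.0 with CTCF and fell by 2.47 on the log2 scale (adjusted p = 0.0247), while DCN and LUM stayed at or below 37.1. The part of these signals in the results below was not tested.

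Most ribosome biogenesis genes read higher in the CTCF cells, by amounts mostly under 2-fold. With 1 probe set per gene, that with the highest mean, 38 of 40 genes had a log2 change above 0, against 46.9% of all 19775 genes. The median change was 0.64 (range -0.53 to 1.86), and that of all genes was -0.02. In bulk RNA a change in the RNA per cell and a change in the share of cells with the RNA cannot be told apart. All 4 CTCF arrays lay above both empty vector arrays for 28 of the 40 genes, against 8.0% of all genes (1582 of 19775), and below both for 1, against 9.63%. 39 of the 40 genes had a mean above the median of all genes, and among all genes that bright 11.9% separated upward. 2 genes rose, RRP15 and RRP12, against 0.622% of all genes and 1.15% of the bright ones. No member fell, against 1.95% of all genes, and 1 had an unadjusted p under 0.05 downward in limma, against 12.7% of all genes. 30 of the 40 had an unadjusted p under 0.05 upward, against 8.66% of all genes. Among all 75 probe sets with a member name alone, 5 rose and 0 fell, against 0.538% and 1.32% of all probe sets. The 5 belong to RRP15, RRP12, MRTO4, MYBBP1A and NOLC1. Without the array set block limma called 0 of the 40 genes, against 0.0152% of all genes. In that fit 25 of the 40 had an unadjusted p under 0.05, against 9.48% of all genes. Without CTCF array 1, 6 member genes were called in limma, of 384 called genes among all 19775. Without any one of the other 5 arrays 0 were called, but those fits made 0 to 8 calls over all 54613 probe sets, so these counts say nothing particular to the members. Upward at an unadjusted p under 0.05 were 27 of the 40 genes without CTCF array 2 (6.81% of all genes), 25 without CTCF array 3 (6.99%) and 5 without empty vector array 2 (3.89%). Without empty vector array 1 or CTCF array 4 the contrast rests on the larger set, where 23 of the 40 passed at that level (5.81% of all genes). In that set the empty vector arm is 1 array, assumed to vary like the 3 CTCF arrays, and without empty vector array 2 the same holds for empty vector array 1.

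**Figure D1:**
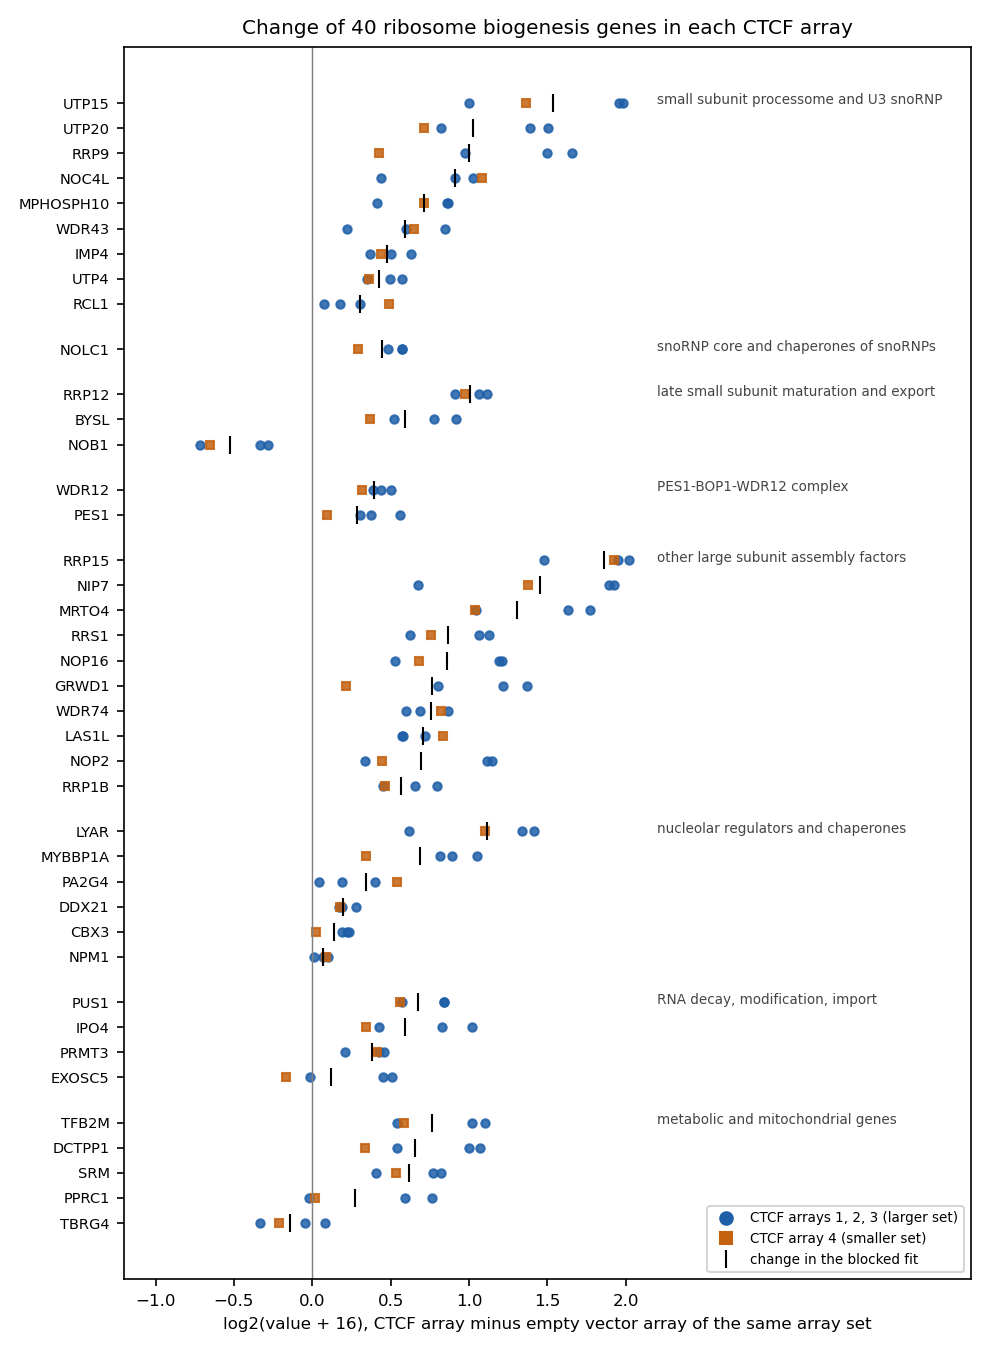
Log2 difference between each CTCF array and the empty vector array of the same array set (x axis) for the 40 genes (y axis), grouped by role. Circles are CTCF arrays 1, 2 and 3, squares are CTCF array 4 and bars are the blocked change. Points lie right of 0 for most genes, left of 0 on all 4 arrays for NOB1, and the largest blocked change is 1.86 for RRP15.

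For most members the change had the same direction in both array sets. Within the smaller set the median member change was 0.45 and within the larger 0.71, and 37 of 40 genes were higher in both, against 29.9% of all genes. In the larger set all 3 CTCF arrays lay above the empty vector array for 36 of 40 genes, against 29.1% of all genes. In the smaller set the CTCF array lay above the empty vector array for 37 of 40, against 45% of all genes. The CTCF arrays also differed among themselves. CTCF array 1 was the lowest of the 3 CTCF arrays of the larger set for 35 of 40 genes, against 40.5% of all genes. The median difference from empty vector array 2 was 0.44 for CTCF array 1, 0.86 for CTCF array 2 and 0.77 for CTCF array 3. CTCF array 1 thus differed least from the control array. Members also read low in the smaller set. CTCF array 4 was the lowest CTCF array for 27 of 40 genes and empty vector array 1 lay below array 2 for 30, against 45.4% and 56.4% of all genes.

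**Figure D2:**
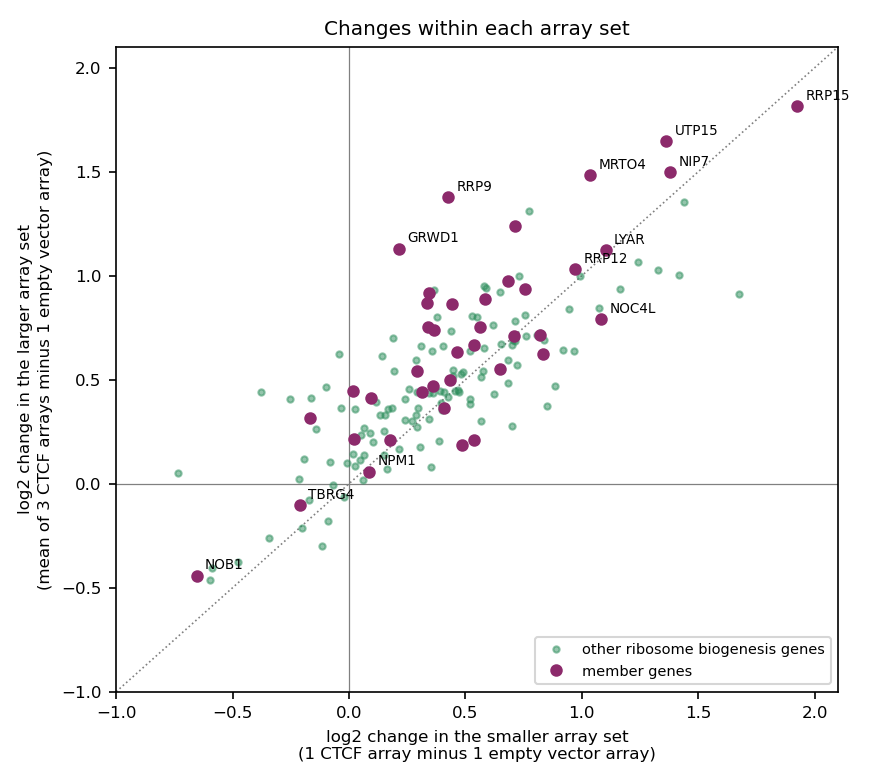
Log2 change within the smaller array set (x axis, 1 CTCF array minus 1 empty vector array) against that within the larger set (y axis, mean of 3 CTCF arrays minus 1 empty vector array). Purple points are the 40 member genes and green points 121 other ribosome biogenesis genes. 37 members lie right of and above 0, with RRP15 at 1.92 and 1.82, and NOB1 lies in the lower left at -0.65 and -0.44.

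The assembly factors of the large subunit outside the PES1-BOP1-WDR12 complex had the highest median change of the roles. For all 10 of these genes that have a probe set of their own, every CTCF array lay above both empty vector arrays, with a median change of 0.81 and 1 of 10 past the threshold. Of all genes 8.0% separated upward and 0.622% rose, and of those with a mean above the median 11.9% and 1.15%. RRP15, a processing factor of large subunit precursors, read 321 and 414 on empty vector arrays 1 and 2, against 1180.0, 1727, 1644 and 1263 on CTCF arrays 1 to 4, the order used for all genes here. Its lowest CTCF value was well above its highest empty vector value, and the means were 367 ± 65.5 (SD, n = 2) and 1454 ± 272 (SD, n = 4). RRP15 rose by 1.86 ± 0.19, 3.63-fold (adjusted p = 0.024), the 19th largest change of 19775 genes. Its other probe set had 1.19 ± 0.23 (adjusted p = 0.0676), with groups that overlapped because CTCF array 4 read 71.0 and empty vector array 2 read 102. RRP15 kept its call without CTCF array 1 (adjusted p = 0.0347). Without any one of the other 5 arrays, in fits that called 8 probe sets at most, its adjusted p was between 0.104 and 0.398 and its change stayed at 1.80 to 1.92. The same fits gave the adjusted p-values without single arrays of the other called probe sets.

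MRTO4, related to the ribosomal stalk protein P0 and a placeholder for it on large subunit precursors, was read by 2 probe sets. The brighter read 588 and 602 against 1259, 2097, 1901 and 1224, without overlap, with a change of 1.30 ± 0.25 (adjusted p = 0.0652). The dimmer read 83.0 and 189 against 610.2, 857, 686 and 225, also without overlap. It rose by 1.61 ± 0.20 (adjusted p = 0.0295), and its adjusted p was 0.04998 without CTCF array 1 and 0.12 to 0.437 without any other array.

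NIP7, a factor of 27S precursor processing in yeast, read 321 and 370.1 against 601, 1453, 1420.3 and 860.5. The groups did not overlap, but the CTCF arrays ranged more than 2-fold, and the change of 1.45 ± 0.39 did not pass (adjusted p = 0.132). A second NIP7 probe set had 1.16 ± 0.27 (adjusted p = 0.102). RRS1, which brings the 5S ribonucleoprotein into the large subunit, read 417 and 475 against 742, 1056, 1010.3 and 715 (0.87 ± 0.18, adjusted p = 0.081). NOP16 read 744 and 795 against 1151, 1860.0, 1835 and 1203 (0.86 ± 0.24, adjusted p = 0.14). Both were higher on every CTCF array, and the empty vector arrays differed little. The remaining genes of this role had changes of 0.57 to 0.76. WDR74, the partner of the ATPase NVL, had 0.76 ± 0.13 (adjusted p = 0.0564) and LAS1L, an endonuclease that cuts the second internal spacer, 0.71 ± 0.12 (adjusted p = 0.0571). GRWD1, a histone-binding protein and chaperone of a large subunit protein, had 0.76 ± 0.26, with 0.21 in the smaller and 1.13 in the larger set. NOP2, an RNA methyltransferase of the large subunit, had 0.70 ± 0.28, and RRP1B, with the smallest change of the group, read 1146 and 1347 against 1846, 2353, 2134 and 1588 (0.57 ± 0.15, adjusted p = 0.12).

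**Figure D3:**
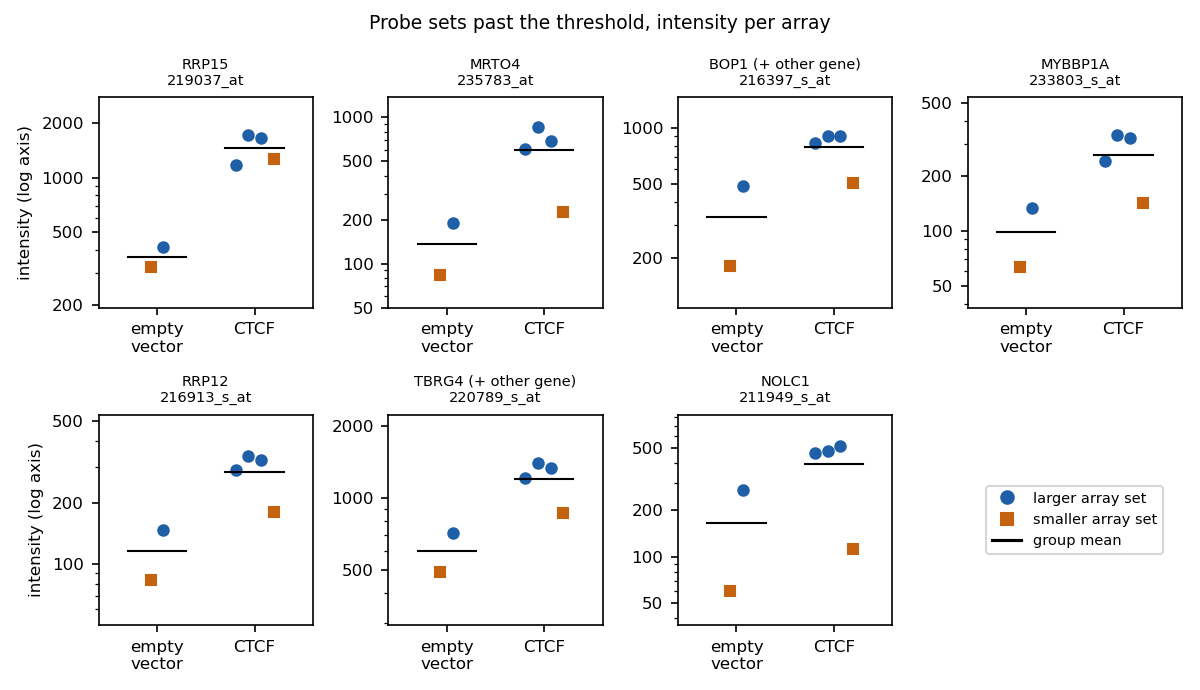
Intensity (y axis, log scale) of the 7 probe sets past the threshold in the 2 empty vector and 4 CTCF arrays (x axis), with circles for the larger and squares for the smaller array set and lines for the group means. Within each set the CTCF arrays lie above the empty vector array, as for RRP15 with 1263 against 321 in the smaller set.

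PES1, BOP1 and WDR12 form a stable complex needed to process the 32S precursor of the large subunit. Neither gene of the complex with a probe set of its own passed the threshold. WDR12 read 1927 and 1683 against 2205, 2393, 2281 and 2402 (0.39 ± 0.12, adjusted p = 0.159). PES1 read 782 and 662 against 821, 985, 863 and 835 (0.28 ± 0.14, adjusted p = 0.387). The groups did not overlap for either, and the differences were smaller than for most other large subunit factors.

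All 9 genes of the small subunit processome had a change above 0, with a median of 0.71. In limma 8 had an unadjusted p under 0.05, all upward, against 8.66% of all genes, and 0 passed the threshold. The groups overlapped for 5 of the 9. UTP15, a protein of the subcomplex that joins precursor transcription to processing, read 36.2 and 134 against 285, 569, 579 and 118. CTCF array 4 lay below empty vector array 2, which is of the other set, and more than 2-fold above empty vector array 1 of its own set. The change was 1.53 ± 0.32 (adjusted p = 0.0783), and a second UTP15 probe set, without overlap, had 0.91 ± 0.23 (adjusted p = 0.116). UTP20, a large scaffold protein, read 39.0 and 103 against 195, 322, 297 and 74.1 (1.03 ± 0.24, adjusted p = 0.102). RRP9, the protein specific to the U3 ribonucleoprotein, read 62.2 and 119 against 249, 409, 364 and 89.2 (1.00 ± 0.29, adjusted p = 0.151), with a change of 0.43 in the smaller and 1.38 in the larger set. Both had the pattern of UTP15, with low values on both arrays of the smaller set.

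NOC4L, whose yeast counterpart acts in small subunit assembly and export, also followed the array set, with 58.2 and 141 on the arrays of the smaller set and 279 to 586 on those of the larger (0.91 ± 0.20, adjusted p = 0.0911). MPHOSPH10 and IMP4, partners in a U3-associated complex, had 0.71 ± 0.17 and 0.47 ± 0.13, without overlap. WDR43 and UTP4 belong to the same subcomplex as UTP15. WDR43 had 0.59 ± 0.20, and UTP4, which had the highest mean of the role, read 1401 and 1454 against 1854, 2167, 2056 and 1803 (0.43 ± 0.13, adjusted p = 0.158), both without overlap. RCL1, known in yeast for a cut in the precursor, had the smallest change of the group. It read 368 and 666 against 702, 827, 753 and 522 (0.31 ± 0.14, adjusted p = 0.333), and its second brightest probe set had 0.06 ± 0.11.

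The 3 late factors of the small subunit did not share a direction. RRP12, a repeat protein that acts in the export of subunits, read 83.8 and 147 against 289.7, 337, 324 and 179.8. All CTCF values lay above both empty vector values, with means of 115 ± 44.4 (SD, n = 2) and 282 ± 71.2 (SD, n = 4). RRP12 rose by 1.01 ± 0.12 (adjusted p = 0.028) and by nearly the same amount within the smaller and the larger set, 0.97 and 1.03. Its adjusted p was 0.0457 when CTCF array 1 was removed and 0.115 to 0.407 when any other array was. The mean of its 5 probe sets, most of them dim, had 0.43 (adjusted p = 0.0672). BYSL, a factor of late small subunit precursors, read 748 and 838 against 1211, 1594, 1448 and 969 (0.59 ± 0.17, adjusted p = 0.147).

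NOB1, the endonuclease that makes the final cut at the end of the 18S RNA, was the only one of the 40 genes with all CTCF arrays below both empty vector arrays. It read 1354 and 1538 against 930.2, 1264, 1219 and 854. The change was -0.53 ± 0.17 and did not pass (adjusted p = 0.187), with -0.65 and -0.44 in the smaller and larger sets. Whether NOB1 differs from the other members was not tested.

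Of the proteins of small nucleolar ribonucleoproteins and their chaperones, NOLC1 had a change above 0 on all its probe sets, while those of NOP56 differed. NOLC1, the chaperone that carries these particles between Cajal bodies and the nucleolus, has 3 probe sets. The brightest read 1750.0 and 1698 against 2535, 2529.8, 2383 and 2149, without overlap (0.44 ± 0.12, adjusted p = 0.139). The next read 333 and 731 against 1059, 1181, 1183 and 711, with overlap (0.80 ± 0.15, adjusted p = 0.0617). The dimmest read 60.3 and 270.2 against 468, 481, 514 and 112, so both arrays of the smaller set lay below all arrays of the larger. It rose by 0.78 ± 0.11 (adjusted p = 0.0415) in the blocked fit, and no longer passed when any single array was left out (adjusted p of 0.059 to 0.433). NOP56, a core protein of box C/D particles, is read by probe sets that also name snoRNAs and a microRNA of its introns, which it hosts. The first read 811 and 1006 against 1397, 1768, 1589 and 1198 (0.61 ± 0.14, adjusted p = 0.0978). The second read 599.7 and 402 against 451, 495, 473 and 489 (0.02 ± 0.15, adjusted p = 0.967), so the pair differed and which transcript each reads is uncertain.

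Nucleolar regulators and chaperones had the lowest median change of the roles, 0.27, and 0 of 6 past the threshold in limma. 2 had an unadjusted p under 0.05 upward, against 8.66% of all genes. NPM1, the abundant nucleolar chaperone, read 8951 and 10034 against 10738, 10507, 10109 and 9512, with overlap (0.07 ± 0.11, adjusted p = 0.81). A dimmer NPM1 probe set read 3080.1 and 3139 against 4584, 5217, 4945 and 4283, without overlap (0.57 ± 0.12, adjusted p = 0.0844). These probe sets of 1 gene thus disagreed in size. DDX21, an RNA helicase of polymerase I transcription and processing, had 0.20 ± 0.11, CBX3, a heterochromatin protein, 0.14 ± 0.12 and PA2G4, a growth regulator found in nucleoli, 0.34 ± 0.16.

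LYAR, a zinc finger protein of the nucleolus whose promoter is shown above, read 508 and 659 against 1019, 1781, 1689 and 1110.3. The groups did not overlap, and the change was 1.11 ± 0.25 (adjusted p = 0.0936), with 0.99 ± 0.29 for its second probe set. MYBBP1A, a nucleolar corepressor, was read by 2 probe sets. The brighter read 349 and 246 against 443, 526, 469 and 447 (0.69 ± 0.17, adjusted p = 0.113). The dimmer read 63.2 and 134 against 243, 337, 322 and 143, and rose by 1.04 ± 0.17 (adjusted p = 0.0484). It passed at 0.0457 without CTCF array 1 and had an adjusted p of 0.146 to 0.507 without any other array.

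The genes of RNA decay, modification and import had a median of 0.49, and 0 of 4 passed in limma. 3 had an unadjusted p under 0.05 upward, against 8.66% of all genes. PUS1, a pseudouridine synthase, read 348 and 460.3 against 693, 838, 838 and 522, without overlap (0.68 ± 0.14, adjusted p = 0.0787). IPO4, a nuclear import receptor, had 0.59 ± 0.21 and groups that overlapped. PRMT3, which methylates a small subunit protein, read 866 and 1029.7 against 1192, 1389, 1421 and 1155, without overlap (0.38 ± 0.13, adjusted p = 0.205). EXOSC5, a core subunit of the RNA exosome, read 497 and 454 against 450.4, 652, 626 and 441 (0.12 ± 0.21, adjusted p = 0.825), and its sign differed between the sets, -0.17 and 0.31.

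Among the 5 metabolic and mitochondrial genes 0 passed in limma and the median was 0.61. 3 had an unadjusted p under 0.05 upward, against 8.66% of all genes. TFB2M, a mitochondrial transcription factor, read 1383 and 1373 against 2005, 2971, 2793 and 2079 (0.77 ± 0.20, adjusted p = 0.127). DCTPP1, a dCTP pyrophosphatase, had 0.66 ± 0.21 and SRM, the spermidine synthase, 0.61 ± 0.16 (adjusted p = 0.128). For these 3 genes every CTCF array lay above both empty vector arrays. PPRC1, a transcription coactivator, had 0.27 ± 0.26, with groups that overlapped. TBRG4, a regulator of mitochondrial RNA, has a probe set of its own that is dim, at 17.1 and 29.4 against 31.9, 27.9, 20.0 and 12.5, and its groups overlapped. The means were 23.2 ± 8.70 (SD, n = 2) and 23.1 ± 8.61 (SD, n = 4), with -0.15 ± 0.16 in the fit.

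Of the 7 probe sets that name a member with other genes, 2 rose and 0 fell, against 0.538% and 1.32% of all probe sets. These 7 cannot be assigned to a gene. The probe set annotated to TBRG4 and SNORA5B read 489 and 716 against 1216, 1400.0, 1341 and 869.6 and rose by 0.84 ± 0.12 (adjusted p = 0.0406). A probe set annotated to BOP1 and MIR7112 read 181 and 486 against 829, 899, 906 and 504 and rose by 1.06 ± 0.16 (adjusted p = 0.0444). The groups did not overlap for either, but both calls ended without any single array, at adjusted p of 0.0529 to 0.437 and 0.0597 to 0.343. The other probe set annotated to BOP1 and MIR7112 had 0.60 ± 0.13, with groups that overlapped. The probe set annotated to PPAN and its readthrough with P2RY11 read 288 and 223 against 510.1, 767, 736 and 542 (1.25 ± 0.23, adjusted p = 0.0646).

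Over the 75 probe sets, 67 had a change above 0, against 25569 of all 54613. 61 were higher in both array sets, against 15447 of all 54613. A mean below the median of all genes was found for 15 of the 75, against 34272 of all 54613. The 15 include 3 of the 4 TFB2M probe sets. NOP16 and WDR74 had probe sets of opposite sign more than 1 apart. For NOP16 a dim probe set had -0.25 and another 1.20, and for WDR74 a probe set near background had -0.12 and another 1.03.

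The rest of the ribosome biogenesis pathway was also mostly above 0, with a lower median. Of 126 other genes listed by function, 121 were measured. 108 had a change above 0, against 46.9% of all genes, and the median was 0.42. 58 separated upward and 5 downward, against 8.0% and 9.63% of all genes. 6 rose and 0 fell in limma, against 0.622% and 1.95%. At an unadjusted p under 0.05 were 66 upward and 2 downward, against 8.66% and 12.7%. The 3 largest rises were those of EXOSC3, EMG1 and TSR1. EXOSC3, a cap subunit of the exosome, read 488 and 585 against 1287, 1669, 1642 and 1350.5 (1.39 ± 0.15, adjusted p = 0.025). EMG1, which methylates the 18S RNA, rose by 1.17 ± 0.17, and TSR1, a GTPase-like factor of late small subunit precursors, rose by 1.15 ± 0.15. By group, the median was 0.51 for 49 other small subunit factors, 0.40 for 46 other large subunit factors, 0.33 for 12 other snoRNP proteins and 0.32 for 14 nucleolar chaperone and exosome genes. 5 of the 6 rises were in the small subunit group. Among the members the large subunit factors outside the PES1-BOP1-WDR12 complex had the highest median. Without CTCF array 1, 7 of these genes were called, of 384 called genes among all 19775. Without any one of the other 5 arrays 0 were, in fits that made 0 to 8 calls over all probe sets.

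**Figure D4:**
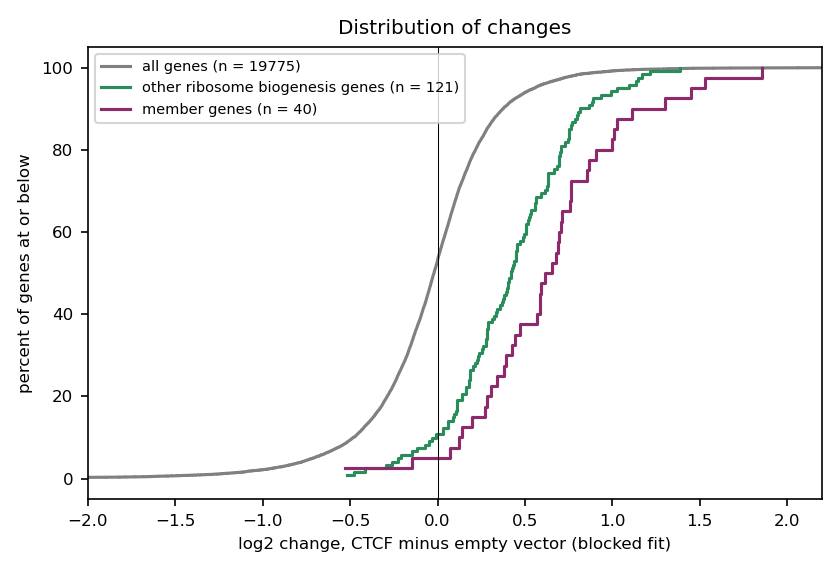
Cumulative percent of genes (y axis) at or below a log2 change (x axis, blocked fit) for all 19775 genes, 121 other ribosome biogenesis genes and the 40 member genes. The member curve lies farthest right, with medians of -0.02, 0.42 and 0.64 in that order.

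The authors' deposited table, whose probe sets were selected on the lower bound of the fold change and on the difference of means, lists 13 member probe sets, all higher in the CTCF cells. The authors' deposited table holds 768 probe sets, 457 of them lower and 311 higher, the latter 0.569% of those tested. It gives RRP15 a fold change of 3.91 with bounds of 2.96 and 5.37, and LYAR one of 2.39 with bounds of 1.72 and 3.29. The authors' deposited table gives the brighter UTP15 probe set a fold change of 4.56 with bounds of 1.79 and 97.47.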

How the data were processed

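Expression was measured in 2 empty vector and 4 CTCF samples on Affymetrix U133 Plus 2.0 arrays, 1 array a sample. The deposited values are linear intensities, 1 for each probe set on each array, and how the authors corrected, summarised and normalized them is not stated in the sources used here. A further deposited table lists probe sets the authors selected, with group means as intensity and a signed fold change score, chosen on the lower bound of the fold and on the difference of means per the file headers. Groups came from the sample titles. Array medians were 28.8 to 34.2, and the number of arrays limits the precision.

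After adding 16 and taking log2, limma 3.58.1 (R 4.3.3) was fitted with empirical Bayes and a 2-sided test. All 54613 probe sets other than AFFX controls were fitted with the group and the array set, the latter from hierarchical clustering on spike-in controls, with Benjamini-Hochberg adjustment across them (threshold 0.05). Gene names are those of the platform annotation held by GEO, and symbols were updated by Entrez ID from a RefSeq table (GRCh38.p14). No filter on low values was used, so all 40 genes were tested. On simulated arrays 200 of 54613 probe sets were changed, all drawn from those with a mean above the median. Noise was drawn independently for each probe set, with the variances of the blocked fit, so these rates may not hold for the real arrays. The blocked fit recovered 64% of 2-fold and 99% of 4-fold changes, and 13 of its 176 calls were false. Dropping the block recovered 0% of both sizes, but the simulated arrays kept the difference between sets, which favours the block.

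The members, gene lists, roles, motifs and the blocked fit were chosen with earlier results of these data known, so no list was given a test. Array values were given for members with a probe set past the threshold and, in each role, those with the largest change, the smallest change and the highest mean, with others added after their values were seen. Alternatives were no array set block, the replicate number as a block, quantile normalization, median centring, pseudocounts of 1 and 64, no dim probe sets, robust variances with a trend, weights for each array, the mean of a gene's probe sets, a threshold of 0.01, the larger set alone and leaving out each array.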

Additional observations from a re-analysis of the deposited data

How the results depend on the processing

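The median change of the member genes, 0.64, was 0.45 to 0.75 over 17 alternatives. All lay within 0.22 of it, the SD of the median differences of CTCF arrays 1 to 3 from empty vector array 2. That SD rests on 3 arrays of the larger set and leaves out CTCF array 4 and the spread of the empty vector arrays. Over the alternatives 37 to 39 of the 40 genes (38 of 39 without dim probe sets) stayed above 0. Not all of these alternatives could move the median. A variance trend leaves every change as it was, and leaving out dim probe sets only drops a gene. The fits without empty vector array 1, without CTCF array 4 and with the larger set alone are the same contrast. The number of genes with groups that do not overlap, 29 in both directions, was 31 after quantile normalization. Without single arrays it was 29 to 37. Leaving out an array can only keep or raise this count, so that range says nothing about its stability. Counts of calls moved with the fit. They were 0 for member probe sets, member genes and other pathway genes without the array set block and with a pseudocount of 1. Those fits made 6 and 2 calls over all probe sets. In them 25 and 23 member genes had an unadjusted p under 0.05 in limma, against 9.48% and 16.5% of all genes. At a threshold of 0.01 the counts were 0 for the members. Member probe sets, member genes and other pathway genes called were 9, 4 and 10 after quantile normalization, 11, 5 and 11 after median centring, 13, 6 and 21 with a pseudocount of 64, 19, 11 and 25 without dim probe sets, 22, 13 and 30 with a variance trend, and 13, 7 and 15 with array weights, against 5, 2 and 6. Calls over all probe sets moved in the same fits, from 1017 to 1200, 1443, 2140, 2642 (of 27306 tested), 2567 and 1913 in that order. With the mean of a gene's probe sets, 6 member genes and 19 other genes were called, of 918 calls over all 19775 genes. At the threshold of 0.01, 22 of all 54613 probe sets were called. Without single arrays the counts ran from 0 to 13, 0 to 6 and 0 to 7, while calls over all probe sets ran from 0 to 762. The cause of these differences was not tested, apart from fewer arrays or probe sets in the fit. Over all probe sets, higher calls made up 28.9% as deposited and 42.3% after quantile normalization.

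Single genes reversed in 3 fits: EXOSC5 had -0.17 without empty vector array 2 (-0.17 to 0.31 without single arrays), RCL1 had -0.033 with the mean of its probe sets, and TBRG4 had 0.24 with the replicate block. With the replicate number as a block, without the array set, limma called 0 member probe sets, member genes or other pathway genes. That fit made 0 calls over all probe sets. In it 14 member genes had an unadjusted p under 0.05, against 6.32% of all genes. As far as the labels say, samples of the same number shared only the number. Their deviations from the group means correlated at -0.68 for number 1, whose arrays are in different array sets. The correlation was 0.70 for number 2, whose arrays are both in the larger set. The deviations of the 2 empty vector arrays mirror each other, so these correlations are not separate checks and do not settle whether numbers mark pairs.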
